A study of Mus musculus with 9 samples.

Results

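The 9 genes described here are *Aldh1a2*, *Aldh1a3*, *Cyp26b1*, *Crabp1*, *Crabp2*, *Rara*, *Rarb*, *Rxra* and *Rxrg*, which make, break down, carry or sense retinoic acid. They were chosen by name, and each was found among the 51912 genes of the deposited table through its Ensembl identifier. The study asked how loss of the homeobox gene *Nkx2.9* alters the developing midbrain. RNA was sequenced from micro-dissected midbrains of C57Bl/6 mouse embryos at E14.5 (E for embryonic day), and every library pooled 2 midbrains. In the LacZ allele, LacZ replaces the first exon of *Nkx2.9* in every cell of the embryo. Libraries are named here by their column of the table, which shows the genotype and not the replicate. The 3 homozygous libraries, labelled *Nkx2.9*LacZ/LacZ, are columns 1 to 3. The 3 heterozygous libraries are columns 4 to 6 (label *Nkx2.9*LacZ/+), and columns 7 to 9 are the 3 wild-type libraries (*Nkx2.9*+/+).

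Retinoic acid is a small signalling molecule made from vitamin A. Retinol enters the cell and is oxidized to retinaldehyde, retinaldehyde dehydrogenases of the Aldh1a family turn this into retinoic acid, and enzymes of the Cyp26 family break it down. Inside the cell, retinoic acid is held by carriers of the Crabp family and acts on nuclear receptors, where a retinoic acid receptor (RAR) and a retinoid X receptor (RXR) bind DNA as a pair. In the embryonic brain the pathway is best known for patterning the hindbrain, around which Cyp26 enzymes keep other territories low in retinoic acid, and Aldh1a1 is known from a subset of midbrain dopamine neurons.

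The values are normalized counts, which are reads per gene divided by a size factor of the library. The whole reads behind them could be recovered, and between 1692963 (column 7) and 5942192 (column 8) reads fell on genes, so that 1 read is worth from 0.702 to 2.59 normalized counts. *Nkx2.9* itself, *Nkx2-9* in the annotation, gave 28 reads in all, with 4, 6 and 3 in columns 1 to 3, 0, 7 and 4 in columns 4 to 6 and 0, 2 and 2 in columns 7 to 9. It was thus not lower in the libraries labelled homozygous, a whole-gene count does not tell the deleted exon from the rest, and genotypes are given below as the labels have them. The sign of each difference between genotypes thus rests on the column headers alone. Under these headers *En1*, *En2*, *Pax7* and *Tph2*, genes that the study followed up, averaged 180, 254, 173 and 7.71 normalized counts in the homozygous and 274, 344, 264 and 27.2 in the wild-type libraries. *Wnt8b*, followed up with them, read 30.9, 13.7 and 15.5 in columns 1 to 3 and 5.17, 8.42 and 1.47 in columns 7 to 9. The dopamine transporter gene *Slc6a3* read 42.9, 53.0 and 41.2 in the homozygous and 59.5, 58.9 and 47.8 in the wild-type libraries, which overlap. From its sequencing, the study reported *En1*, *En2*, *Pax7* and *Tph2* as upregulated and *Wnt8b* as downregulated in the mutant. All of these ran the other way under the headers. In situ hybridization there showed less of the dopamine transporter transcript in a caudomedial part of the mutant midbrain, which the study's sequencing did not detect. Whether the homozygous and wild-type headers were exchanged could not be settled from these values. An exchange would turn the sign of each difference between those genotypes and swap them in each comparison with the heterozygous libraries. All 13 midbrain markers were above the minimum level for testing, a mean of 5 normalized counts, with a summed level per library of 1992 to 2152 in homozygous, 1875 to 2671 in heterozygous and 2165 to 2359 in wild-type libraries. Columns 4 and 7 stood apart from the other 7 libraries, since genes rich in G and C were relatively high in them. They also had the fewest reads on genes, 2584074 and 1692963, against 4522261 to 5942192 in the other libraries. Spearman's rho across genes, between GC content and a gene's deviation from its mean, was 0.531 in column 4 and 0.248 in column 7, against -0.296 to -0.105 elsewhere. The pools also differed in sex. *Xist*, which is made from the inactive X chromosome, lay between 4607 and 5182 normalized counts in columns 1 to 3 with at most 2.26 for the sum of 4 Y-linked genes, while in columns 4, 5 and 9 *Xist* was at 79.9, 14.52 and 47.1 and the Y-linked sum at 606, 1058 and 1075. Column 8 held both, at 2580 and 505, and columns 6 and 7 were high in *Xist*, at 2929 and 4342.

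The 9 genes fell into 2 classes of abundance. *Cyp26b1*, both *Crabp* genes and all 4 receptor genes were read in every library, whereas the synthesis genes *Aldh1a2* and *Aldh1a3* were at the limit of detection. To compare genes, the mean normalized count of the 9 libraries was divided by the length of a gene's merged exons. On this scale *Cyp26b1* stood at 20.1 ± 12.9 (SD, n = 9) normalized counts per kilobase, *Crabp1* at 19.9 ± 8.31, *Crabp2* at 19.7 ± 8.55 and *Rxra* at 18.2 ± 3.15. These 4 levels did not differ beyond their spread, because each of the first 3 genes exceeded the next in only 5 of 9 libraries. *Rara* followed at 13.8 ± 2.45 per kilobase and lay under *Rxra* in 7 of 9 libraries, by 4.44 ± 4.70 (SD), which is within the spread. It exceeded *Rxrg* in 8 of 9, by 6.78 ± 4.61. *Rxrg* at 7.0 ± 3.45 and *Rarb* at 6.58 ± 2.52 per kilobase were again not separable from each other, with *Rxrg* above in 5 of 9. *Aldh1a3* at 0.131 and *Aldh1a2* at 0.0449 per kilobase closed the order. When the longest transcript was used as the length instead, *Crabp2* moved to the top of the order at 28.0 per kilobase and *Rarb* stood above *Rxrg*, at 11.1 against 7.62.

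**Figure D1:**
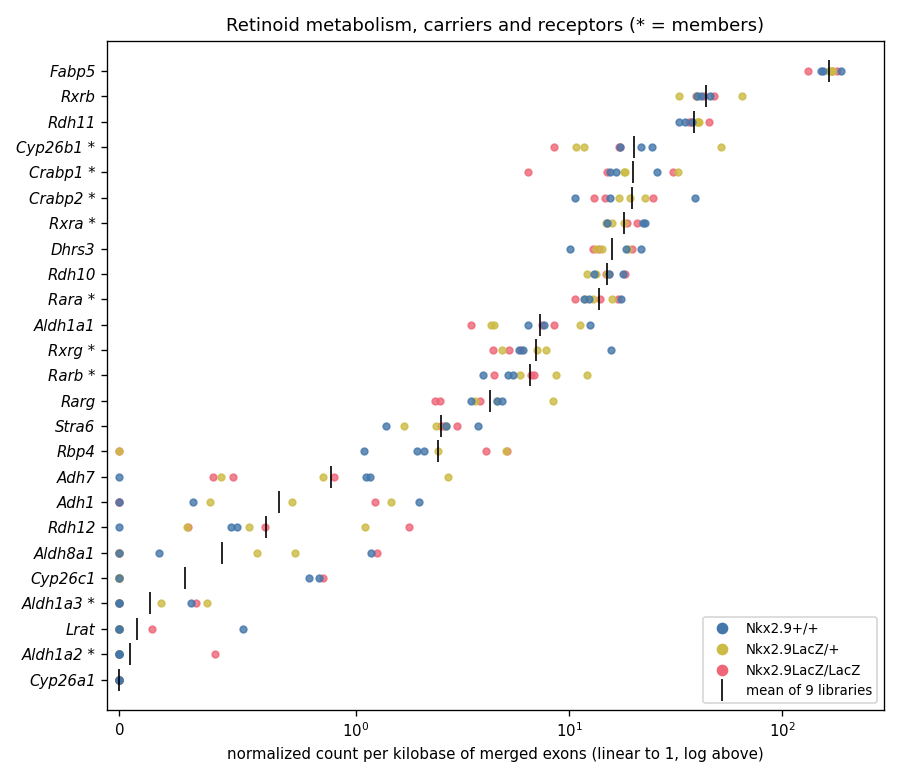
Normalized count per kilobase of merged exons (x axis, linear up to 1 and logarithmic above) of 25 of the 26 genes of retinoid metabolism, carriers and receptors, with one point per library coloured by genotype and a black bar at the mean of 9 libraries. *Fabp5* is highest at 166, the means of the 7 well-read members lie between 6.58 and 20.1, and *Aldh1a3*, *Aldh1a2* and *Cyp26a1* lie at the bottom.

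The enzymes that make retinoic acid were nearly absent among the 9 genes. *Aldh1a2* (ENSMUSG00000013584, chr9:71215789-71296243, plus strand of GRCm38), the main retinaldehyde dehydrogenase of the early embryo and of the meninges, gave 1 read in all, in column 2. *Aldh1a3* (ENSMUSG00000015134, chr7:66390890-66427517, minus strand), the dehydrogenase of the ventral eye and of parts of the forebrain, gave 7 reads. They were 2 in column 1, 2 in column 5, 1 in column 6 and 2 in column 8, with 0 in the other 5 libraries. The floor for a count of 0 was set at 3 reads, which is 2.11 normalized counts in the deepest library and 7.76 in the shallowest, so a genotype difference of either gene was not detectable at this depth. The third dehydrogenase, *Aldh1a1*, was the synthesis gene that could be measured, at 7.34 ± 3.11 per kilobase, while the related *Aldh8a1* gave 14 reads in all. *Aldh1a1* read 36.9, 42.1 and 17.2 normalized counts in the homozygous libraries, 21.2, 55.5 and 22.03 in the heterozygous libraries and 62.1, 31.6 and 37.5 in the wild-type libraries. These ranges overlap, and homozygous and wild-type libraries differed by -0.47 on the log2 scale (95% confidence interval -1.34 to 0.39, limma p = 0.264, adjusted p = 1.00, exact permutation p = 0.5). Leaving out single libraries moved this difference between -0.71 (without column 2) and -0.088 (without column 3).

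*Cyp26b1* (ENSMUSG00000063415, chr6:84571414-84593908, minus strand), which oxidizes retinoic acid to inactive products, was the breakdown enzyme with the most reads. It gave 932 reads in all, against 6 for *Cyp26c1* and 0 for *Cyp26a1* over the same 9 libraries. Its normalized counts were 92.6, 91.5 and 45.5 in columns 1 to 3 (homozygous). In columns 4 to 6 (heterozygous) they were 277, 63.2 and 57.9. In columns 7 to 9 (wild-type) they were 132, 92.6 and 116. Column 4 was thus far above every other library, while the remaining heterozygous libraries lay under all 3 wild-type libraries. The homozygous values did not overlap the wild-type values, which held for 9.52% of all genes tested, but the gap between the nearest libraries was 0.0467 normalized counts, which is less than 1 read. The difference between these genotypes was -0.62 on the scale of log2(normalized count + 1) (95% confidence interval -1.56 to 0.32, fold 0.651), with a limma p = 0.180, an adjusted p = 1.00 and an exact permutation p = 0.1, the smallest that 3 libraries against 3 can give. In the text below, a difference is said to pass the unadjusted test when limma's p before adjustment is under 0.05.

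The result for *Cyp26b1* depended on single libraries. Without column 3, the lowest library, the difference between homozygous and wild-type libraries was -0.29 (SE 0.48, adjusted p = 1.00). Without column 4 it remained at -0.62 but had an SE of 0.24 in place of 0.44 and passed the unadjusted test (adjusted p = 0.921). It also passed in a fit of only the 6 libraries compared (SE 0.25, adjusted p = 0.964), which leaves out the spread of the heterozygous libraries. Between heterozygous and wild-type libraries the difference was -0.16 (95% confidence interval -1.10 to 0.78), and without column 4 it was -0.88 (SE 0.27, adjusted p = 0.844) and passed the unadjusted test, as it did without columns 4 and 7, at -0.77. Its sign was not settled, since the group means of 133 and 114 normalized counts ran the other way and the difference was 0.17 without column 5, 0.24 without column 6, 0.15 with edgeR and 0.22 with DESeq2. Between homozygous and heterozygous libraries it was -0.46 (95% confidence interval -1.40 to 0.48) and turned to 0.26 without column 4. In column 4 *Cyp26b1* lay 1.55 above its own mean on the log2 scale. The median of the 1257 genes within 1 percentage point of its GC content (56.7%) lay 0.28 above theirs. The spread of those genes is not given here, and the part of base composition in the value of column 4 was not tested. After the trend on GC content had been removed, homozygous and wild-type libraries differed by -0.56 (SE 0.37, adjusted p = 1.00). In these bulk samples fewer cells of a type and less RNA per cell cannot be told apart.

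**Figure D2:**
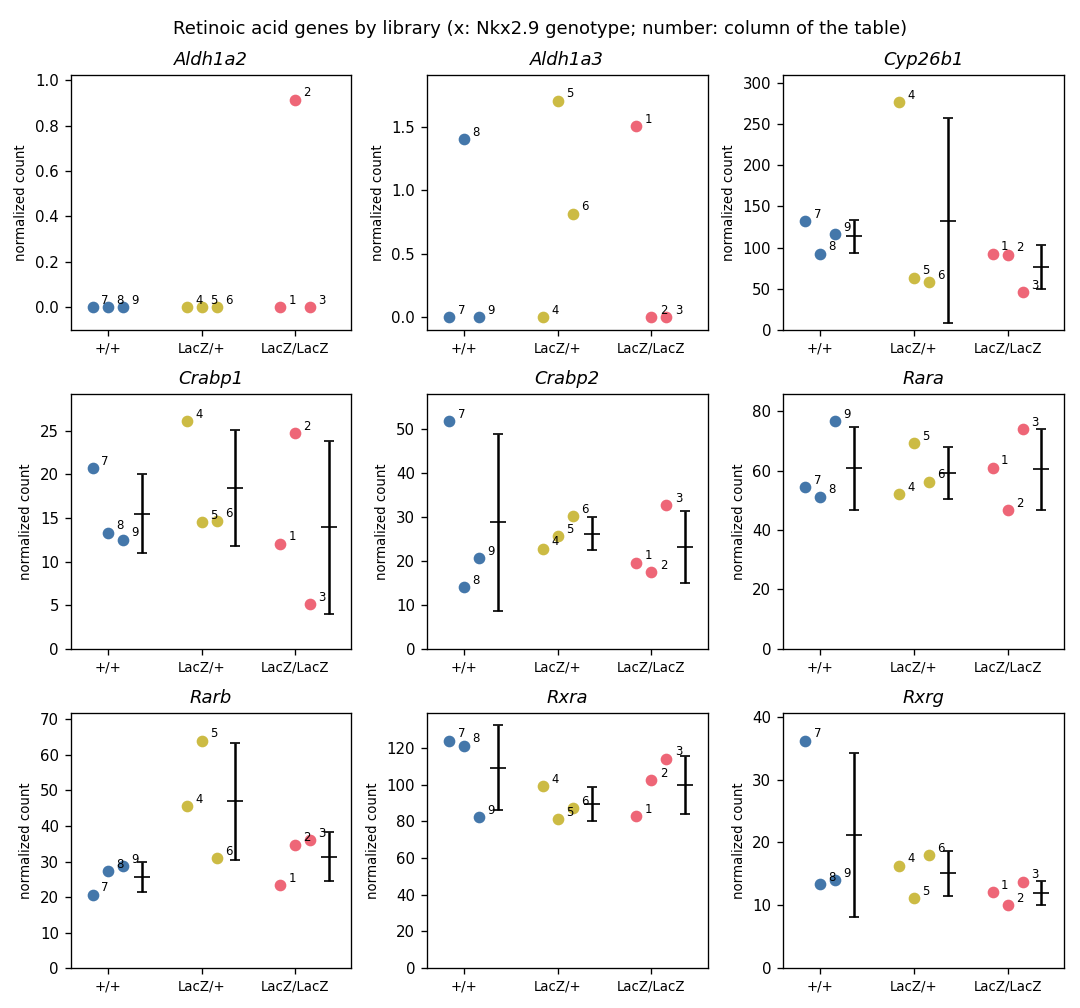
Normalized count of each of the 9 genes (y axis, linear) in the 9 libraries, grouped by *Nkx2.9* genotype on the x axis, with points numbered by column and black bars for the mean ± SD of 3 libraries (not drawn for *Aldh1a2* and *Aldh1a3*). *Cyp26b1* reaches 277 in column 4, *Rarb* is higher in columns 4 to 6 (31.0 to 64.0) than in columns 7 to 9 (20.7 to 28.7), and column 7 is highest for *Crabp2* and *Rxrg*.

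The carriers *Crabp1* (ENSMUSG00000032291, chr9:54764748-54773110, plus strand) and *Crabp2* (ENSMUSG00000004885, chr3:87948666-87953376, plus strand) hold retinoic acid in the cytoplasm, and *Crabp2* is known to hand it to the receptors in the nucleus. *Crabp1* read 12.0, 24.7 and 5.15 normalized counts in homozygous, 26.1, 14.52 and 14.7 in heterozygous and 20.7, 13.3 and 12.5 in wild-type libraries. *Crabp2* read 19.6, 17.4 and 32.6, then 22.8, 25.6 and 30.2, and then 51.7, 14.0 and 20.6 in the same order. The ranges of the genotypes overlap for both genes. Single libraries were far from the others of their genotype, namely columns 2, 3 and 4 for *Crabp1*, on 27, 6 and 16 reads, and column 7 for *Crabp2*, on 20 reads. The exact Poisson 95% interval of the *Crabp2* value in column 7 runs from 31.6 to 79.9 normalized counts, which is the counting error alone. Homozygous and wild-type libraries differed by -0.34 for *Crabp1* (95% confidence interval -1.38 to 0.70, exact permutation p = 0.7) and by -0.14 for *Crabp2* (-1.02 to 0.74, exact permutation p = 0.8) on the log2 scale, and limma gave an adjusted p = 1.00 for both. Neither direction was stable, since the difference of *Crabp1* was 0.18 without column 3 and -0.85 without column 2, and without column 7 that of *Crabp2* was 0.37. *Fabp5*, a fatty acid binding protein that can also carry retinoic acid, was far more abundant than either, at 166 ± 16.9 per kilobase and 473 to 678 normalized counts per library. Its largest difference between genotypes was -0.08 on the log2 scale (95% confidence interval -0.37 to 0.21).

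Of the retinoic acid receptors, *Rara* (ENSMUSG00000037992, chr11:98927818-98974942, plus strand) took 56.5 ± 8.05% (SD, n = 9) of the summed level per kilobase of the 3 RAR genes, *Rarb* 26.3 ± 6.53% and *Rarg* 17.2 ± 6.24%. *Rara* was the most even between genotypes of the 7 genes above the minimum level. It read 61.0, 46.6 and 73.9 normalized counts in homozygous, 52.2, 69.2 and 56.3 in heterozygous and 54.3, 51.2 and 76.6 in wild-type libraries. The means of the 3 genotypes were 60.5, 59.2 and 60.7, and the difference between homozygous and wild-type libraries was -0.01 on the log2 scale, with a 95% confidence interval from -0.51 to 0.50 that still allows a fold from 0.701 to 1.41.

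*Rarb* (ENSMUSG00000017491, chr14:16430839-16819156, minus strand), a receptor gene that is itself a classical target of retinoic acid, was the gene among the 9 that passed an unadjusted test. It read 23.3, 34.8 and 36.1 normalized counts in homozygous, 45.6, 64.0 and 31.0 in heterozygous and 20.7, 27.4 and 28.7 in wild-type libraries. All heterozygous libraries lay above all wild-type libraries, with 2.29 normalized counts between the nearest of them, columns 6 and 9, and such a separation held for 6.91% of all genes tested. The homozygous libraries overlap both groups. Heterozygous libraries exceeded wild-type libraries by 0.80 on the log2 scale (SE 0.31, 95% confidence interval 0.15 to 1.46, fold 1.74), with an unadjusted limma p = 0.0195 (under 0.05 for 2.78% of all genes tested), an adjusted p = 1.00 and an exact two-sided permutation p = 0.1. Homozygous and wild-type libraries differed by 0.27 (95% confidence interval -0.38 to 0.93, exact permutation p = 0.3), and homozygous and heterozygous libraries by -0.53 (-1.19 to 0.13, exact permutation p = 0.3). Without column 6 the latter difference was -0.79 (SE 0.32, adjusted p = 0.903) and passed the unadjusted test, whereas without column 5 it was -0.28 and with log2 *Xist* as a covariate -0.07.

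The heterozygous excess of *Rarb* kept its direction when any library was left out, but not always its call. It was 0.55 (SE 0.34) without column 5 and 0.66 (SE 0.33) without column 7, whose value stands on 8 reads. It was 0.65 (SE 0.35) without columns 4 and 7, and 0.58 (SE 0.31) with log2 *Xist* as a covariate. In these 4 settings it did not pass the unadjusted test. Columns 4 and 5, which carried the highest *Rarb* values, were also the heterozygous libraries low in *Xist*. Among the libraries low in *Xist*, *Rarb* read 45.6 and 64.0 in columns 4 and 5 against 28.7 in the wild-type column 9. Among those high in *Xist* and without Y-linked reads beyond a sum of 3.26, it read 31.0 in the heterozygous column 6 and 20.7 in the wild-type column 7, and 23.3, 34.8 and 36.1 in columns 1 to 3. The part of sex in the difference was not tested beyond these values. With edgeR on the recovered reads the difference was 0.82 and with DESeq2 0.83 (SE 0.36), and it passed the unadjusted test in both, with an adjusted p = 1.00. *Rarb* also shares 1793 of its 5265 exon bases (34.1%) with *Top2b* on the opposite strand. *Top2b* is abundant, at 1398 to 2753 normalized counts, and the strand setting of the counting is not given in the sources used here, so reads of both genes may not have been told apart. In the libraries highest in *Rarb*, columns 5 and 4, *Top2b* was at 2753 and 1398, its highest and its lowest values. These are values of the whole gene, and the part of *Top2b* reads in the *Rarb* counts was not tested.

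**Figure D3:**
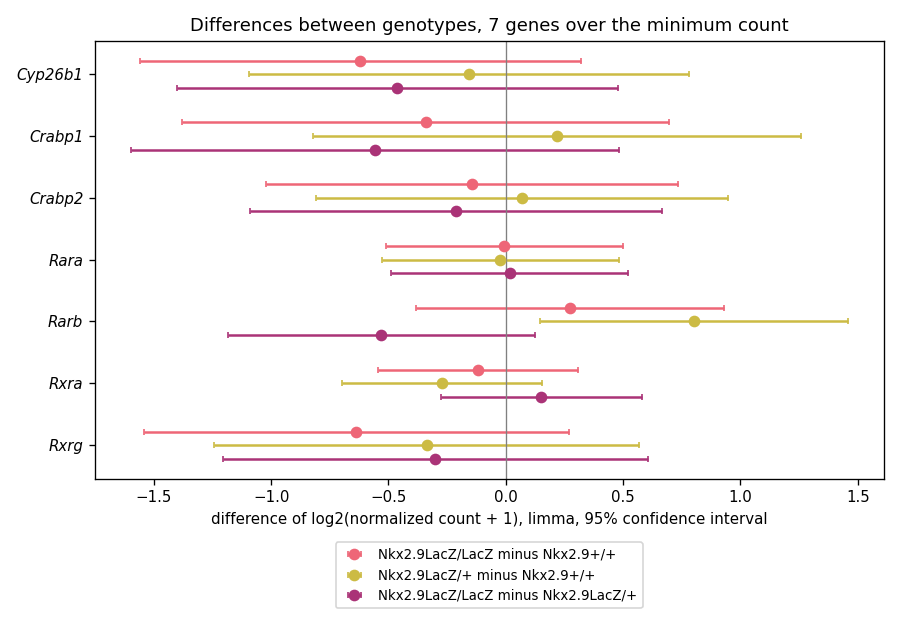
Difference of log2(normalized count + 1) between genotypes (x axis) for the 7 genes above the minimum level (y axis), with points for the limma estimate and bars for its 95% confidence interval. The interval of *Rarb* in heterozygous minus wild-type (0.15 to 1.46) is the one that leaves out 0.

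The promoter of *Rarb* is shown because this promoter is known for a retinoic acid response element. RAR and RXR pairs bind direct repeats of a short half-site, and the classical spacer is 5 bases. RefSeq promoter windows (GRCm38.p6, from 250 bases before to 50 after a start site) were given for 7 of the 9 genes, 12 windows in all. They were searched on both strands for NGNTCANNNNNNGNTCA, where N is any base. Among these 7 genes a match was found for *Rarb*. Of all 66 windows of 43 genes in the retinoid lists described below, the other match was in *Cyp26a1*. For all genes the share was 0.861%, or 283 of 32851 windows. The matched bases are in capitals with 6 and 7 flanking bases, and both are read on the minus strand, *Rarb* from chr14:16575506-16575535 and *Cyp26a1* from chr19:37697769-37697798.
Rarb: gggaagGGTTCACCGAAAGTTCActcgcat
Cyp26a1: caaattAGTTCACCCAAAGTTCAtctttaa
The repeats share 15 of 17 bases and differ by A1G and C9G, counted from the 5′ end of the repeat with the *Cyp26a1* base given ahead of the position. The repeat lies 53 to 37 bases upstream of the RefSeq start of *Rarb* and 32 to 16 bases upstream of that of *Cyp26a1*. In GENCODE it falls within the 5′ UTR in the first exon of the *Rarb* transcripts Rarb-201 and Rarb-207, which start further upstream. The genes that share this repeat differed in their reads. *Rarb* was read in all 9 libraries (8 to 75 reads), whereas *Cyp26a1*, a Cyp26 enzyme that retinoic acid is known to induce strongly, had 0 reads in all 9. A direct repeat with a spacer of 2 bases (NGNTCANNNGNTCA) had no match in the 66 windows, against a share of 1.11% over all windows.

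The retinoid X receptors were represented by *Rxra* (ENSMUSG00000015846, chr2:27676440-27762957, plus strand) and *Rxrg* (ENSMUSG00000015843, chr1:167598384-167639623, plus strand). Of the summed level per kilobase of the 3 RXR genes, *Rxrb* took 63.5 ± 5.93% (SD, n = 9), *Rxra* 26.5 ± 3.61% and *Rxrg* 10.03 ± 4.09%. The summed RXR level was 69.1 ± 10.97 per kilobase and the summed RAR level 24.6 ± 4.21. *Rxra* read 82.8, 102 and 114 normalized counts in homozygous, 99.4, 81.1 and 87.3 in heterozygous and 124, 121 and 82.4 in wild-type libraries. Its genotypes overlap, and the largest difference was -0.27 between heterozygous and wild-type libraries (95% confidence interval -0.70 to 0.16, exact permutation p = 0.3, limma adjusted p = 1.00). Without column 9 this difference was -0.46 (SE 0.21, adjusted p = 1.00) and passed the unadjusted test.

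*Rxrg*, the RXR with the most restricted expression, read 12.0, 10.1 and 13.7 normalized counts in homozygous, 16.3, 11.1 and 17.9 in heterozygous and 36.2, 13.3 and 14.0 in wild-type libraries. Column 7 was higher than the other 8 libraries, on 14 reads with an exact Poisson 95% interval from 19.8 to 60.7 normalized counts. Homozygous and wild-type libraries differed by -0.64 on the log2 scale (95% confidence interval -1.54 to 0.27, exact permutation p = 0.2, limma adjusted p = 1.00), and by -0.19 without column 7.

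In limma 7 of the 9 genes were tested, and 0 of 7 had an unadjusted p under 0.05 between homozygous and wild-type libraries, where the background was 2.6% of 16993 genes. Between heterozygous and wild-type libraries it was 1 of 7, *Rarb*, at a background of 2.78%, and between homozygous and heterozygous libraries 0 of 7 at 2.64%. After adjustment limma called 0 of all genes in each comparison (0%), with 441, 473 and 449 genes at an unadjusted p under 0.05. edgeR also called 0 after adjustment and DESeq2 0, 1 and 0. Values did not overlap for 1 of 7 members in the first comparison (*Cyp26b1*, background 9.52%), for 1 of 7 in the second (*Rarb*, background 6.91%) and for 0 of 7 in the third (background 8.71%). Of the 7 genes, 6 had a difference below 0 in the first comparison, 4 in the second and 5 in the third. The median difference of the 7 genes was -0.14, -0.02 and -0.30 on the log2 scale, and that of all genes 0.01, -0.01 and 0.02.

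The wider pathway was described with lists of 45 further genes, of which 32 were above the minimum level. They cover retinol uptake and oxidation, synthesis, breakdown, carriers, the remaining receptors, partners of the RXRs, orphan receptors, coregulators and direct target genes. Between homozygous and wild-type libraries, 0 of 32 had an unadjusted p under 0.05 (background 2.6%). In the comparison of heterozygous with wild-type it was 1 of 32, higher (background 2.78%), and between homozygous and heterozygous libraries 1 of 32, lower (background 2.64%), and each of these counts is near its background. Values of the genotypes did not overlap for 2, 4 and 1 of the 32, against 9.52%, 6.91% and 8.71% of all genes. The gene with an unadjusted p under 0.05 between homozygous and heterozygous libraries is *Rarg*, whose values overlap there. *Rarg* read 10.5, 10.1 and 16.3 in homozygous against 35.9, 15.4 and 19.6 in heterozygous libraries. The difference was -0.83 (limma p = 0.0492, adjusted p = 0.999, exact permutation p = 0.2). Without column 4 it was -0.49 (SE 0.41) and did not pass. Of the alternative settings, it had an unadjusted p under 0.05 in 7 of 22.

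The most abundant genes of these lists, up to 2 for each, were as follows. *Rdh11*, which acts in retinol oxidation, stood at 38.4 ± 3.60 per kilobase and *Dhrs3*, which turns retinaldehyde back into retinol, at 15.9 ± 3.91. Among partners of the RXRs the thyroid hormone receptor *Thra* (290 ± 34.4 per kilobase) and *Nr4a2* (Nurr1, 83.0 ± 11.7), a factor of dopamine neurons, were highest. Of the orphan receptors that can bind the same repeats, *Nr2f1* stood at 131 ± 8.85 and *Nr2f2* at 117 ± 14.9 per kilobase, and of the coregulators *Ncor1* at 113 ± 6.99 and *Crebbp* at 97.5 ± 6.95. The direct targets *Meis2* at 41.9 ± 4.56 and *Nrip1* at 29.6 ± 3.76 per kilobase were above all 9 genes on this scale. None of these 10 genes passed limma's unadjusted test in any of the 3 comparisons.

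Cells beyond the midbrain tissue could carry some of these transcripts, and their markers were read as whole lists. Of 10 markers of the meninges, a known source of *Aldh1a2*, 5 were above the minimum level, and their sum per library was 193 to 289 normalized counts in homozygous, 204 to 237 in heterozygous and 246 to 356 in wild-type. The sums of the 7 choroid plexus markers, 4 of them above the minimum, were 28.6 to 46.4, 22.8 to 44.1 and 40.7 to 80.2 in the same order, with the highest in column 7, where *Crabp2* and *Rxrg* were also highest. Hindbrain markers (4 of 6 above the minimum, 1 of them, *Lbx1*, at 0 in every library) summed to 49.8 to 71.5, 63.6 to 96.2 and 91.2 to 129, and were thus lower in every library labelled homozygous than in every library labelled wild-type. The same held for the summed midbrain markers, whose nearest libraries were at 2152 (homozygous) and 2165 (wild-type). It also held for *Cyp26b1*, with a gap of 0.0467 normalized counts. Among single genes, values of these genotypes did not overlap for 9.52% of all genes tested. Forebrain markers (6 of 9 above the minimum, *Gsx2* at 0) summed to between 268 and 368, endothelial markers to between 602 and 722 and blood markers to between 1478 and 2249. The part of these cells in the values of the 9 genes was not tested.

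**Figure D4:**
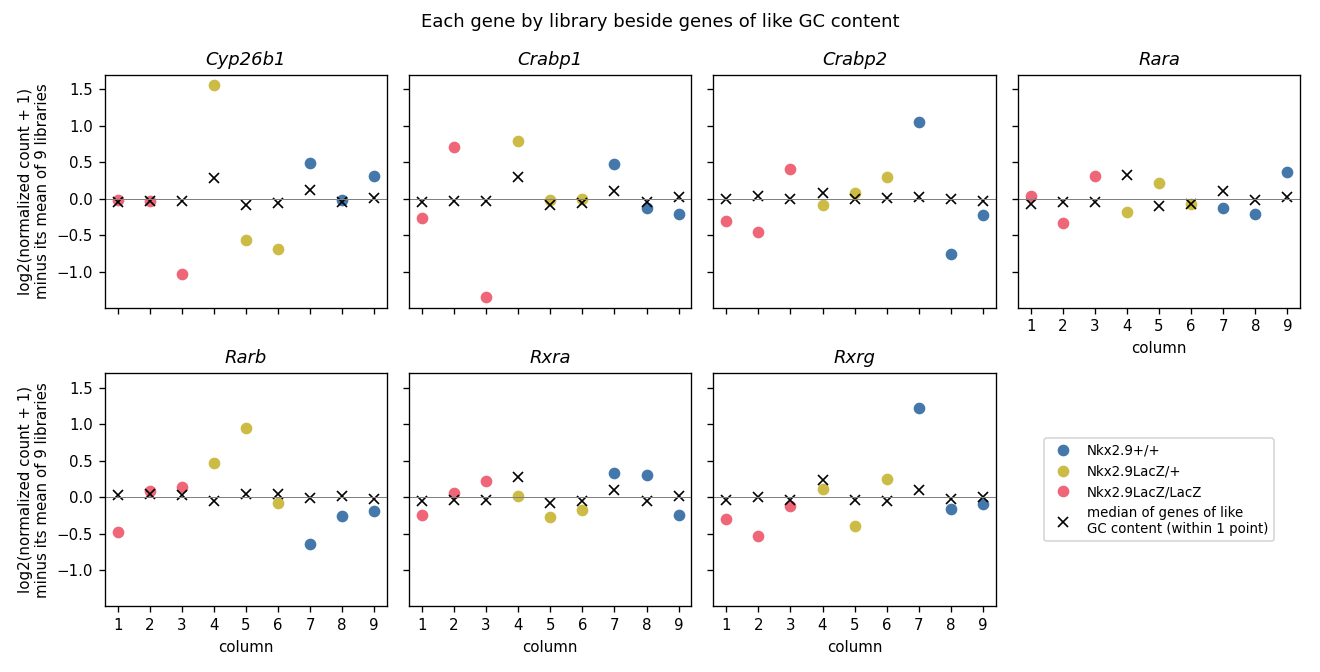
Deviation of log2(normalized count + 1) from a gene's mean of 9 libraries (y axis) by column (x axis) for the 7 genes above the minimum level, with coloured points for the gene and black crosses for the median of all genes within 1 percentage point of its GC content. *Cyp26b1* in column 4 lies at 1.55 where the median of genes of like composition lies at 0.28, and the crosses of the GC-rich genes rise in columns 4 and 7.

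Over the 9 libraries, the genes with the most similar course were sought among 12489 genes with a mean of at least 20 normalized counts, by Pearson's r of log2 values. All these correlations share the libraries and their depth and base composition, and are given as a description. *Cyp26b1* was most like *Scrib* (r = 0.961) and *Traf4* (0.957), which were 0.884 and 0.898 without columns 4 and 7. *Rarb* was most like *Pcdhb17* (0.926) and *Myc* (0.919), which were 0.889 and 0.931 without these columns. *Crabp2* was most like *U2af1* (0.948) and *Ogdhl* (0.941), *Rara* like *2900027M19Rik* (0.916) and *Tsc22d3* (0.907), and *Rxra* like *Trim11* (0.938) and *Slc9a8* (0.887). *Crabp1* and *Rxrg* were under the mean of 20 and were not searched.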

How the data were processed

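The libraries were made by the authors from RNA depleted of ribosomal RNA, sequenced in paired ends. HISAT2 placed the reads on GRCm38/mm10 and featureCounts assigned them to genes. Versions, annotation release and strand setting are not given in the sources used here. The sample labels name a phenol-based isolation and an mRNA protocol, the study's methods a column kit and ribosomal depletion, and the title of the data set names cortex where the labels name midbrain. The signal per gene was deposited as a normalized count, the reads divided by a DESeq2 size factor of each library, and whole reads were recovered from it for 100% of 210686 values above 0 (tolerance 0.01). The authors also deposited 3 tables of their DESeq2 comparisons (fold changes and p-values), which were not used.

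Columns were grouped by genotype. limma 3.58.1 in R 4.3.3 was fitted to log2(normalized count + 1) of all 9 libraries, with a mean-variance trend, as two-sided tests. Genes entered with a mean of at least 5 normalized counts (16993 genes), and their p-values were adjusted together by Benjamini-Hochberg. A fold change on this scale understates that of low genes. The study's methods give few litters for its experiments, so pools of a genotype may share a litter, and p-values measure the spread between these libraries. Intervals from reads are exact Poisson intervals at 95% and cover counting error only, as does the lower floor of 3 reads used for a count of 0. The scripts were tested on simulated data. Alternatives were edgeR 4.0.16 and DESeq2 1.42.0 on the recovered reads, other pseudocounts, filters and normalizations, covariates and leaving out each library. Lengths, overlaps and names came from GENCODE vM21 of GRCm38 (51719 of 51912 identifiers matched) and promoters from RefSeq. Named genes are the 9 members, *Nkx2-9*, the genes of the other retinoid lists with an unadjusted p under 0.05 or among the 2 highest per kilobase, and the genes of most similar course. *Cyp26a1*, *Top2b*, *Slc6a3*, *Wnt8b* and single marker genes were named after their values were seen. A gene of the lists is not reported here by itself. The members and lists were chosen with earlier results of these data known. Figures were drawn with matplotlib 3.10.9.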

Additional observations from a re-analysis of the deposited data

How the results depend on the processing

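With 3 libraries per genotype and 1692963 to 5942192 reads each, differences of the low genes are wide. No paired analysis was possible because the columns carry no replicate number, and the planned replicate block was not run. The setting without columns 4 and 7 and the removal of the trend on GC content were chosen after seeing the data. Comparisons are given in the order homozygous against wild-type, heterozygous against wild-type and homozygous against heterozygous. Of the members, 0, 1 and 0 had an unadjusted p under 0.05 in limma. In the first comparison it was 1, *Cyp26b1*, in a fit of the 6 libraries compared, and in the second 0 with log2 *Xist* as a covariate. Leaving out each library gave 0 to 1, 0 to 2 and 0 to 1. After adjustment over all genes, 6 passed in the first comparison without columns 4 and 7, and 1 in the second with DESeq2, against 0 otherwise. At an unadjusted p under 0.05, all genes with no filter gave 1135, 1137 and 1132, a minimum of 20 gave 263, 242 and 288, and leaving out columns 4 and 7 gave 703, 852 and 971. In the second comparison the count was 280 in the 6 libraries compared, 264 with DESeq2, 298 with *Xist* and 790 with total reads as a covariate. Leaving out each library gave 283 to 827, 375 to 933 and 293 to 740.

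Some differences changed sign with some settings. For *Rara* the first comparison was 0.0067 with upper-quartile scaling, 0.13 with *Xist* and 0.092 with the GC trend removed, and the third was -0.0021 with quantile normalization, -0.030 with total reads and -0.069 without columns 4 and 7. For *Crabp2* the first was 0.072 with total reads and 0.37 without columns 4 and 7. *Cyp26b1* in the second was 0.15 with edgeR and 0.22 with DESeq2, and in the third 0.26 without columns 4 and 7. *Rxrg* in the second was 0.047 without columns 4 and 7, and *Rxra* in the third -0.076 with *Xist*. The cause was not tested. Leaving out each library moved the first comparison of *Crabp1* from -0.85 to 0.18, *Crabp2* from -0.53 to 0.37, *Rara* from -0.16 to 0.17 and *Rxra* from -0.31 to 0.0086, while *Cyp26b1* ranged from -0.79 to -0.29. It moved the second comparison of *Cyp26b1* from -0.88 to 0.24, *Crabp1* from -0.049 to 0.43, *Crabp2* from -0.32 to 0.59, *Rara* from -0.14 to 0.15 and *Rxrg* from -0.58 to 0.11, and the third of *Cyp26b1* from -0.86 to 0.26 and *Rara* from -0.14 to 0.19. *Rarb* in the second comparison stayed between 0.55 and 1.06, with an unadjusted p under 0.05 in 19 of 23 settings and an adjusted p from 0.844 to 1.00.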
